A study of Mus musculus with 6 samples.

Results

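Genes of the enteric nervous system were followed in the small intestine of mouse embryos with and without a conditional knockout (cKO) of E-cadherin. A list of 34 genes was given by name, covering neuropeptides, transmitter enzymes, proteins of neuronal structure and synapse, glia, and regulators of the neural crest, and each was read at the brightest probe set annotated to that gene alone. All 34 had such a probe set, among 19938 genes measured.

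Total RNA from whole small intestine late in gestation (E18.5) was measured on Affymetrix Mouse Gene 1.0 arrays. The 3 cKO samples came from E-cadherin conditional knockout embryos and the 3 control samples from embryos labelled wild type, and all 6 samples share the tissue and the age. The sources used here do not name the tissue or promoter that drove recombination, the exons removed, the strain or the sex, nor whether each sample was a separate animal. The p-values therefore cover the spread among these 6 samples alone, and that spread may be technical.

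The enteric nervous system is the network of neurons and glia in the gut wall that controls motility, secretion and blood flow. Its cells descend from neural crest that enters the gut and spreads along it, driven by the ligand Gdnf acting on the receptor Ret with its co-receptor Gfra1, and by the ligand Edn3 acting on the receptor Ednrb. Mature neurons are told apart by the peptides and small transmitters they make, and glia by genes such as Sox10.

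Values are given on the log2 scale as deposited, differences are cKO minus control, and a gene was called higher or lower in cKO where limma's Benjamini-Hochberg adjusted p over all 19938 genes was under 0.05. Background on each array was set at the 95th percentile of 1227 genes for receptors of smell and taste, and it ran from 5.79 to 6.25 on the cKO arrays and from 6.19 to 6.36 on the control arrays. The array cKO 2 was dimmer as a whole, with a median of 6.17 over all probe sets, against 6.45 to 6.48 on the other cKO arrays and 6.44 to 6.50 on the control arrays. Cdh1, which encodes E-cadherin, read 9.70, 8.38 and 8.91 on cKO arrays 1, 2 and 3, against 9.86, 9.82 and 10.15 on control arrays 1, 2 and 3. All 3 cKO values lay below the controls, but the difference of -0.95 (SE 0.31) had an adjusted p of 0.0884 in limma, and cKO 1 lay close to the controls. Without cKO 1 the Cdh1 difference was -1.30 with an adjusted p of 0.0118, and without cKO 2 it was -0.64 with 0.145. The adjusted p was also under the threshold with array weights (0.011), an intensity trend (0.0477) and without the dimmer 50% of genes (0.0444). Cdh1 did not pass after quantile normalization (0.113), median centring (0.0507) or cyclic loess (0.0904), or with a replicate block (0.064).

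Markers of enteric neurons were measured above background in both groups. Tubb3, Uchl1 and Prph were above background on all 6 arrays, Elavl4 on 3 cKO and 2 control arrays, and Elavl3 on 2 cKO arrays and 1 control array. Of the glial markers, Sox10 was above background on all 6 arrays and Fabp7 on 3 cKO and 2 control arrays, while S100b was below it on every array. Over the list, 21 genes were above background on all 6 arrays, and Chat, Dbh and Calb2 were below it on all 6.

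Of the 34 genes, 8 rose in cKO intestine and 0 fell. They were the neuropeptides Vip, Penk and Gal, the neuronal proteins Uchl1, Snap25 and Ncam1, and the receptors Gfra1 and Ednrb. Over all genes, 6.81% were called higher and 7.36% lower. At an unadjusted limma p under 0.05, 12 of the 34 were higher and 1, Ret, was lower, against 2641 higher and 3091 lower of all 19938 genes. The median difference of the 34 genes was 0.31, against -0.09 over all genes, and 27 of the 34 differences were positive, against 38.5% of all genes. The 3 cKO arrays lay above the 3 control arrays for 13 of the 34, against 16.0% of all genes, and below them for 0 of the 34, against 19.3% of all genes. In whole tissue, fewer cells of a type and less RNA per cell cannot be told apart, and neither can more cells and more RNA per cell.

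**Figure D1:**
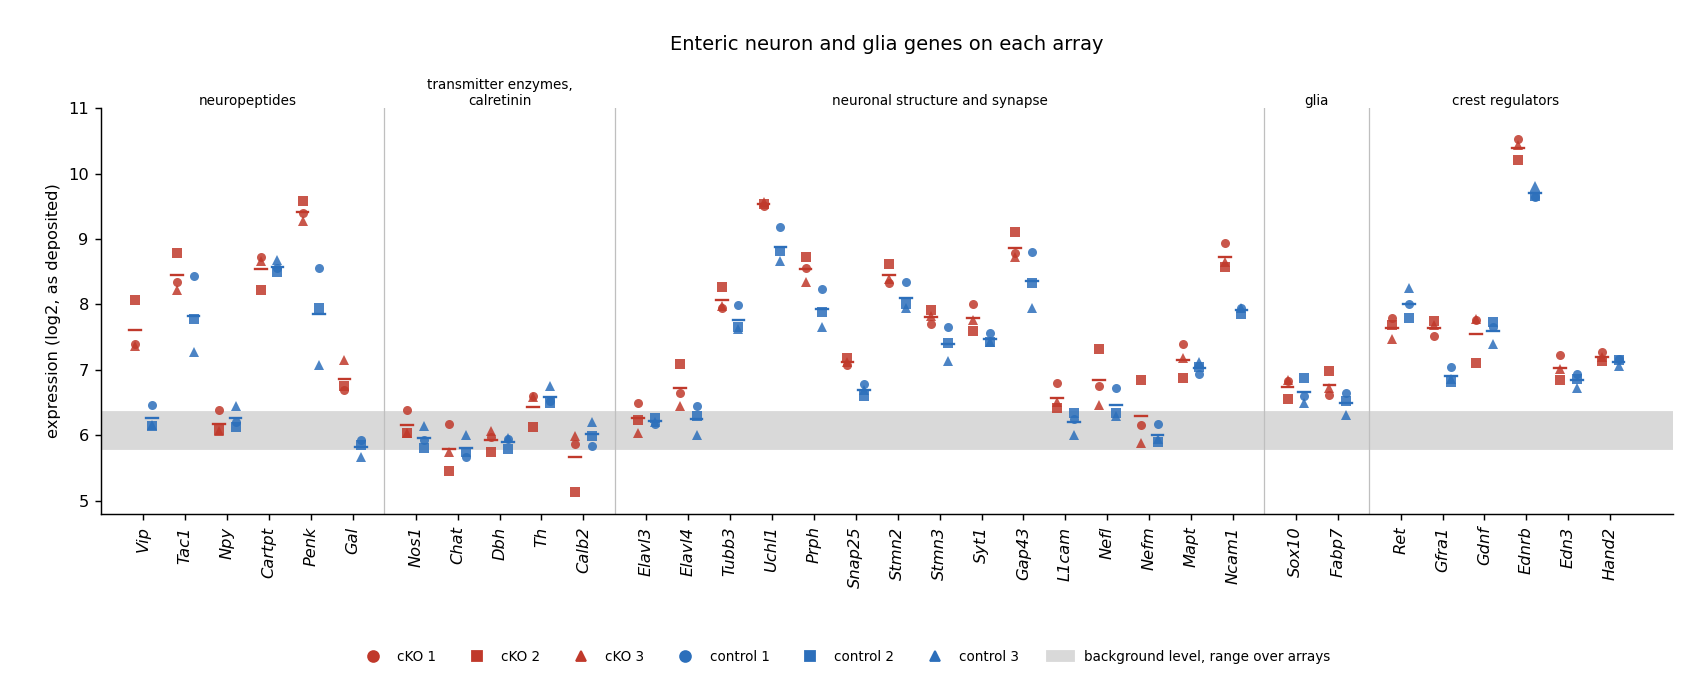
The log2 value of each of the 34 genes (x axis) on each array (y axis, log2 as deposited), cKO in red to the left of control in blue, with a bar at each group mean and a grey band for the range of the background level over arrays. Vip, Penk, Gal, Uchl1, Snap25, Ncam1, Gfra1 and Ednrb show separate groups, and most transmitter enzymes lie in or near the grey band.

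Among the 6 neuropeptides, 3 rose in cKO and the median difference was 0.84. Vip encodes vasoactive intestinal peptide, a relaxant and secretory transmitter of enteric neurons. It read 7.40, 8.06 and 7.36 on cKO arrays 1, 2 and 3, against 6.47, 6.14 and 6.16 on control arrays 1, 2 and 3. The groups did not overlap, and of the control arrays only control 1 was above background for Vip. Its mean was 7.61 ± 0.39 in cKO and 6.26 ± 0.18 in control (SD, n = 3 each), a difference of 1.35 (SE 0.21, 95% interval 0.86 to 1.84) with a limma adjusted p of 0.00648. With 2 control arrays below background, no fold is given for Vip.

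Penk encodes proenkephalin, the precursor of the enkephalin opioid peptides. Its values were 9.39, 9.58 and 9.27 in cKO 1, 2 and 3, against 8.55, 7.94 and 7.08 in control 1, 2 and 3. The cKO arrays were close together and the control arrays were far apart, with SDs of 0.16 and 0.74 around means of 9.41 and 7.86 (n = 3 each). The difference of 1.56 (SE 0.34, 95% interval 0.77 to 2.34), or 2.94-fold, had a limma adjusted p of 0.0226. The call was lost when cKO 1, cKO 2, cKO 3 or control 2 was left out (adjusted p 0.052, 0.0551, 0.0574 and 0.0745), with differences between 1.47 and 1.63.

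Gal encodes galanin, a peptide of secretomotor and other enteric neurons. On cKO arrays 1, 2 and 3 it read 6.69, 6.75 and 7.15, against 5.93, 5.85 and 5.66 on control arrays 1, 2 and 3. All control values were below background, so the fold is a bound, and Gal was at least 1.51-fold higher in cKO. The measured difference was 1.05 (SE 0.16, 95% interval 0.68 to 1.42; means 6.86 in cKO and 5.81 in control), with a limma adjusted p of 0.00576.

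The other 3 neuropeptides did not pass. Tac1, the gene of substance P and neurokinin A, read 8.34, 8.78 and 8.22 in cKO 1, 2 and 3, against 8.43, 7.77 and 7.28 in control 1, 2 and 3. Control 1 lay within the cKO range and the other control arrays below it, and the difference was 0.62 (95% interval -0.07 to 1.31, adjusted p 0.214 in limma). Npy, which encodes neuropeptide Y, lay near background, at 6.06 to 6.39 in cKO and 6.12 to 6.45 in control, and differed by -0.08 (95% interval -0.42 to 0.26). Cartpt, the precursor of the CART peptide, ran from 8.22 to 8.73 in cKO and from 8.50 to 8.68 in control, and differed by -0.04 (95% interval -0.41 to 0.34).

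Promoter windows from RefSeq (build GRCm38.p6, 250 bases before to 50 after the annotated start) were matched for 23 of the 34 genes. Penk, Snap25 and Ncam1, which also rose, were among the genes without a window and were not searched. Cyclic AMP drives several neuropeptide genes through the response element TGACGTCA and its shorter core TGACG, and the promoters of Vip and Gal are shown because these peptides rose and both windows hold this core, in capitals. The Vip window is chr10:5638968-5639267 on the plus strand, with the first base of the core at -79 from the start. The Gal window is chr19:3414495-3414794 on the minus strand, with the core at 20.
Vip: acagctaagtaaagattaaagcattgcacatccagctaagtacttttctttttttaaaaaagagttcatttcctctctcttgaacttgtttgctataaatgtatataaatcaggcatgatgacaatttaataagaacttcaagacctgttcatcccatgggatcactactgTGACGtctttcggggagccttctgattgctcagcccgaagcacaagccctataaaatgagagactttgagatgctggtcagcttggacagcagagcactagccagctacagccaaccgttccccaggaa
Gal: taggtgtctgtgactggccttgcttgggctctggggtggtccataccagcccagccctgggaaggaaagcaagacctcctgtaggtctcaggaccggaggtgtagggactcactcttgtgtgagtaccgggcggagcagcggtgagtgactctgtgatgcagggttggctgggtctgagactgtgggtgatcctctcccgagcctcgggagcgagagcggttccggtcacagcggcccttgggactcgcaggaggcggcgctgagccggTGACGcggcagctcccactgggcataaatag
Searched on both strands, TGACG, which the full element contains, was found in 12 of the 23 genes, against 23.0% of 27025 genes with a window. The full TGACGTCA was found in 2 of the 23, Cartpt and Th, against 2.03% of genes, and the AP-1 element TGANTCA in 1, Th, against 8.97% of genes. The 12 were Vip, Gal and Ednrb, which rose, and Tac1, Cartpt, Nos1, Chat, Dbh, Th, Elavl4, Gdnf and Hand2, which did not pass, so these letters were found on both sides of the call.

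None of the 5 genes for transmitter enzymes and calretinin passed, and their median difference was -0.02. Nos1, which makes nitric oxide in inhibitory motor neurons, ran from 6.03 to 6.39 in cKO and from 5.80 to 6.14 in control, with a difference of 0.19 (95% interval -0.16 to 0.55). It was above background on cKO arrays 1 and 2 only, so that difference rests on no measured control level. Chat, which makes acetylcholine, and Dbh, which makes noradrenaline, were below background on all 6 arrays, so their differences of -0.02 and 0.03 carry no measured level. Th, which makes the dopamine precursor L-DOPA, was above background on all 6 arrays, at 6.12 to 6.60 in cKO and 6.49 to 6.76 in control, and differed by -0.16 (95% interval -0.54 to 0.23). Calb2, the calcium-binding protein calretinin, was below background throughout. At unadjusted p under 0.05 the count in limma was also 0 in either direction. The dimmer array cKO 2 was the lowest of the cKO arrays in 4 of these 5 genes.

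All 15 genes of neuronal structure and synapse had positive differences, with a median of 0.39, and 3 of them rose past the test. Ncam1, the neural cell adhesion molecule, read 8.94, 8.57 and 8.65 in cKO 1, 2 and 3, against 7.95, 7.86 and 7.95 in control 1, 2 and 3. The groups were well apart and the controls nearly equal. The difference was 0.80 (SE 0.13, 95% interval 0.49 to 1.11; means 8.72 ± 0.19 in cKO and 7.92 ± 0.05 in control, SD, n = 3 each), or 1.74-fold, with a limma adjusted p of 0.00785.

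Uchl1, the ubiquitin hydrolase known as PGP9.5 and used to stain enteric neurons, read 9.51, 9.53 and 9.57 in cKO 1, 2 and 3, against 9.18, 8.81 and 8.66 in control 1, 2 and 3. The cKO arrays all lay above the controls, of which control 1 was nearest. The difference was 0.65 (SE 0.15, 95% interval 0.30 to 1.01), or 1.57-fold, with a limma adjusted p of 0.0291. Leaving out any 1 array other than control 1 ended the call, with adjusted p 0.0577, 0.0521 and 0.0916 without cKO 1, 2 and 3, and 0.118 and 0.0977 without control 2 and 3.

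Snap25, a SNARE protein of synaptic vesicle release, read 7.07, 7.18 and 7.12 in cKO 1, 2 and 3, against 6.79, 6.60 and 6.69 in control 1, 2 and 3. Again the groups did not overlap, and the difference of 0.43 (SE 0.11, 95% interval 0.17 to 0.69), or 1.35-fold, had a limma adjusted p of 0.0401. This call rested on all 6 arrays: without any 1 of them the adjusted p lay between 0.0606 and 0.173.

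The other 12 structural genes gave differences from 0.04 to 0.61 and did not pass. Prph, the peripheral neuron filament peripherin, came closest, at 8.55, 8.72 and 8.34 in cKO 1, 2 and 3, against 8.24, 7.88 and 7.66 in control 1, 2 and 3. Its groups were separate, with a difference of 0.61 (95% interval 0.19 to 1.03) and an adjusted p of 0.0638 in limma. Elavl4, an RNA-binding protein of neurons (0.48), the tubulin-binding Stmn3 (0.41), the axonal adhesion molecule L1cam (0.38) and the synaptic calcium sensor Syt1 (0.31) also had separate groups, with adjusted p from 0.134 to 0.187. Groups overlapped for the growth cone protein Gap43 (0.51), the neurofilament light chain Nefl (0.39), Stmn2 (0.35), the neuronal tubulin Tubb3 (0.31), the medium neurofilament Nefm (0.29), the microtubule-binding tau gene Mapt (0.12) and Elavl3 (0.04). For Stmn3 a second, dimmer probe set gave -0.19 (95% interval -0.77 to 0.39). It was below background on every array, so that difference carries no measured level, and neither probe set passed.

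The arrays of a group kept a similar order over many of these 15 genes. Control 1 was the highest control array in 11 of the 15 and control 3 the lowest in 9, while cKO 2 was the highest cKO array in 9. The mean over the 15 genes, set against each gene's control mean, was 0.43, 0.51 and 0.28 on cKO arrays 1, 2 and 3, against 0.17, -0.03 and -0.14 on control arrays 1, 2 and 3. Smooth muscle markers ran in the same order among the controls, with control 1 the highest in 9 of 9 and control 3 the lowest in 7. Among the cKO arrays the smooth muscle order was another, with cKO 2 the highest in 1 of 9 and the lowest in 4.

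**Figure D2:**
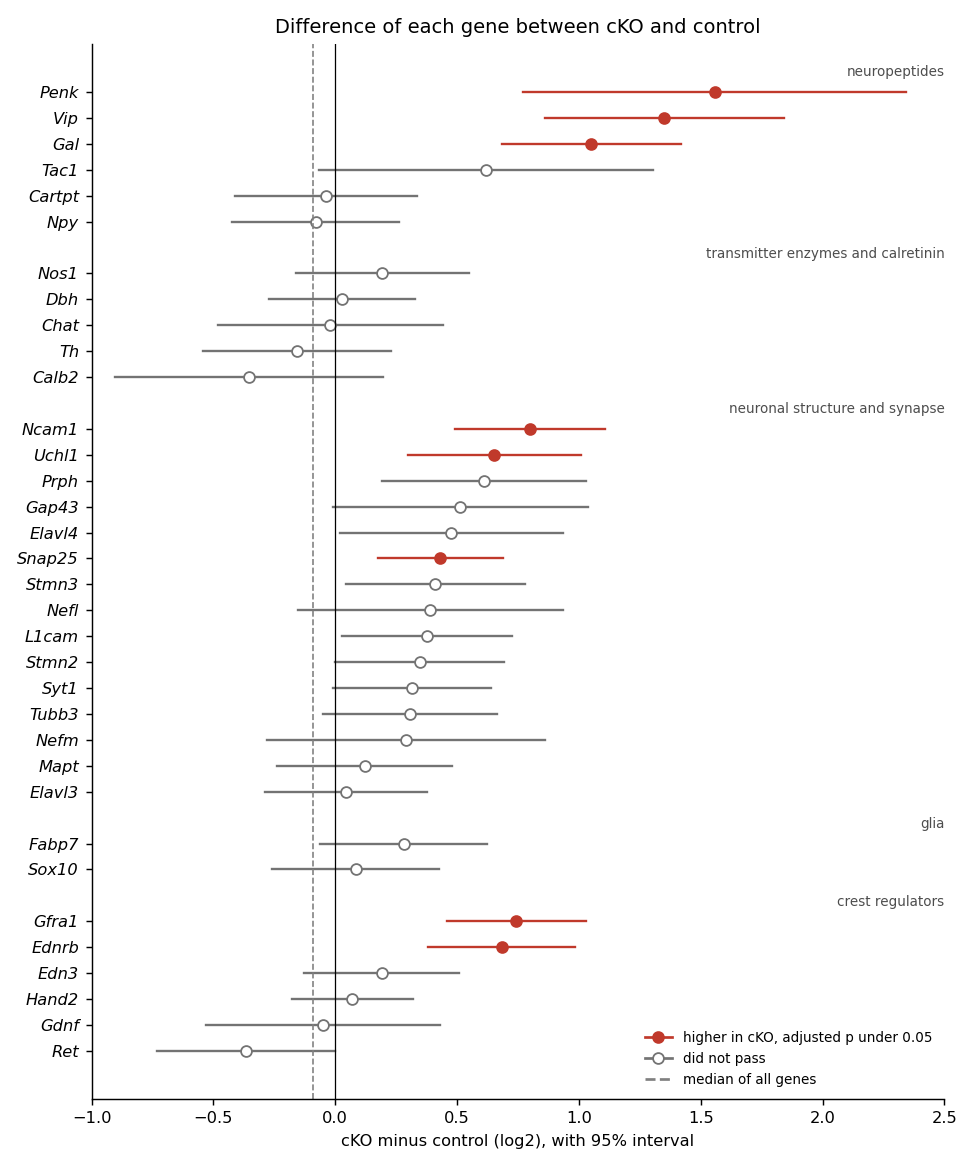
The difference of each of the 34 genes (cKO minus control, log2, x axis) with its 95% interval, grouped by role, filled red where the limma adjusted p was under 0.05, with a dashed line at the median of all genes (-0.09). The 3 filled neuropeptides, at 1.05 to 1.56, lie to the right of the 5 other filled genes, at 0.43 to 0.80.

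Neither glial gene passed. Sox10, the transcription factor that keeps glial and progenitor identity, read 6.83, 6.55 and 6.84 in cKO 1, 2 and 3, against 6.60, 6.87 and 6.50 in control 1, 2 and 3. The groups overlapped, and the difference was 0.08 (95% interval -0.26 to 0.43, adjusted p 0.737 in limma). Fabp7, a fatty acid binding protein of glia, ran from 6.61 to 6.98 in cKO and from 6.31 to 6.65 in control, with a difference of 0.28 (95% interval -0.06 to 0.62, adjusted p 0.26). With 2 genes and intervals of this width, a change of the size seen in the median structural gene (0.39) lies within both intervals.

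Among the 6 crest regulators, 2 receptors rose, and the median difference was 0.13. Gfra1, the co-receptor through which Gdnf binds Ret, read 7.52, 7.74 and 7.68 in cKO 1, 2 and 3, against 7.04, 6.81 and 6.86 in control 1, 2 and 3. The groups lay apart, with a difference of 0.74 (SE 0.12, 95% interval 0.46 to 1.03), or 1.67-fold, and a limma adjusted p of 0.00785. Ednrb, the endothelin receptor, read 10.53, 10.20 and 10.43 in cKO 1, 2 and 3, against 9.64, 9.66 and 9.81 in control 1, 2 and 3. Its groups were also separate, and it was 0.68 higher (SE 0.13, 95% interval 0.38 to 0.98), or 1.61-fold, with an adjusted p of 0.0136. Without cKO 3, control 1 or control 2 its adjusted p was 0.0555, 0.0511 and 0.0701.

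Ret, the signalling receptor that partners Gfra1, gave the most negative difference of the 34 genes and did not pass. It read 7.79, 7.68 and 7.47 in cKO 1, 2 and 3, against 8.0, 7.79 and 8.25 in control 1, 2 and 3. The highest cKO array equalled the lowest control array, and the difference was -0.37 (SE 0.16, 95% interval -0.73 to -0.0025, adjusted p 0.171 in limma). The ligands gave small differences, with -0.05 for Gdnf (95% interval -0.53 to 0.43) and 0.19 for Edn3 (95% interval -0.13 to 0.51). Hand2, a transcription factor needed for enteric neurons to differentiate, differed by 0.07 (95% interval -0.18 to 0.32). So the receptors Gfra1 and Ednrb were higher in cKO on all 3 arrays, while the ligands of both pathways had overlapping groups.

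Because the structural genes were all on the positive side, the peptides and Ret were also set against them. In this comparison, chosen after the data had been seen, each gene was taken relative to the mean of the 15 structural genes on the same array and the limma fit was repeated over all genes, of which 1.81% were called higher and 27.2% lower. Penk stayed higher by 1.15 (SE 0.27, 95% interval 0.55 to 1.75, adjusted p 0.0164), Vip by 0.94 (SE 0.20, 95% interval 0.50 to 1.39, adjusted p 0.0109) and Gal by 0.64 (SE 0.21, 95% interval 0.18 to 1.11, adjusted p 0.0452). On this scale Vip read -0.27, 0.31 and -0.16 in cKO 1, 2 and 3, against -0.94, -1.07 and -0.95 in control 1, 2 and 3. Penk read 1.72, 1.83 and 1.75 in cKO, against 1.14, 0.73 and -0.03 in control, and its call was kept whichever array was left out.

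The Vip call on this scale was lost without control 2 (adjusted p 0.0522), and that of Gal was lost without any 1 array other than cKO 2 (0.0648 to 0.134). Relative to the same mean, Tac1 differed by 0.21 (adjusted p 0.446), Npy by -0.49 (0.0863) and Cartpt by -0.44 (0.13). Ret was lower by -0.77 (SE 0.21, 95% interval -1.23 to -0.32, adjusted p 0.0251), the 1 gene of the list called lower on this scale, and this call was lost without cKO 1, control 2 or control 3 (0.0506, 0.0594 and 0.102). Vip, Penk and Gal therefore differed from the mean of the structural genes, and Tac1, Npy and Cartpt did not pass.

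**Figure D3:**
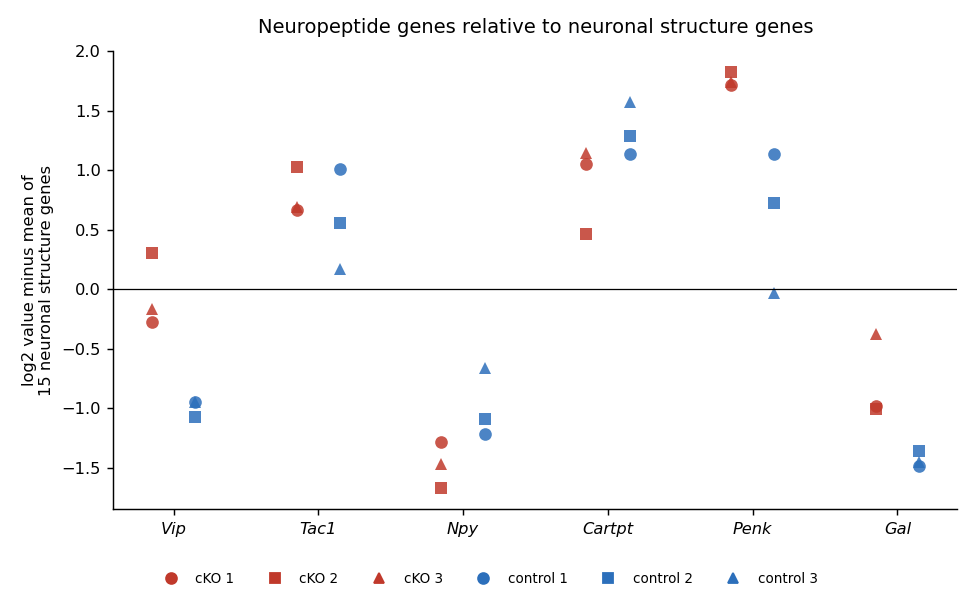
The 6 neuropeptide genes (x axis) on each array, as the log2 value minus the mean of the 15 structural genes on that array (y axis), cKO in red to the left of control in blue. Vip, Penk and Gal lie higher in all 3 cKO arrays than in any control array, while Npy lies lower in all 3 cKO arrays than in any control array and Tac1 and Cartpt overlap; the height of 1 gene against another has no meaning here, since each gene has its own probes.

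Related genes outside the list were read from the fit to the values as deposited, in which 6.81% of all genes were called higher and 7.36% lower. Of 7 other neuropeptides, 1 rose and 1 fell. Grp, gastrin-releasing peptide, read 7.40, 7.58 and 7.75 in cKO 1, 2 and 3, against 6.95, 6.92 and 7.03 in control 1, 2 and 3, with a difference of 0.61 (adjusted p 0.0197 in limma). That call was lost without cKO 3 or without any 1 control array (0.0579 to 0.0915). Calcb, the beta form of calcitonin gene-related peptide, a transmitter of sensory neurons, read 5.94, 5.29 and 6.34 in cKO, against 6.84, 6.87 and 7.46 in control, with a difference of -1.20 (adjusted p 0.0326). Of the cKO arrays only cKO 3 was above background for Calcb, so no fold is given. The Calcb call was lost without cKO 1 or without any 1 control array (0.0621 to 0.119). Of 15 neuropeptide receptors 0 passed (1 lower at unadjusted p under 0.05), and 8 were below background on all 6 arrays. Of the 2 with the smallest p, Tacr2 for neurokinin A differed by -0.26, and Oprk1 for dynorphin was below background on all 6 arrays and has no measured level.

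Of 12 genes for transmitter handling and receptors 0 rose and 1 fell, Ddc, the decarboxylase that makes dopamine and serotonin, by -0.50 (adjusted p 0.0313). At an unadjusted limma p under 0.05, 2 of the 12 were higher and 1 was lower, against 2641 and 3091 of all 19938 genes. The Ddc call was lost after median centring (0.154) and cyclic loess (0.0505), with the replicate block (0.0664) and without any 1 array other than cKO 2 (0.0593 to 0.131). Of 24 other genes of neuronal structure 5 rose and 0 fell, and the median was 0.26. They included the microtubule protein Map1b (0.83, adjusted p 0.007), the growth cone protein Dpysl3 (0.82, 0.0151), the tubulin Tubb2b (0.79, 0.0282) and the synaptic vesicle protein Syp (0.52, 0.033). Map1b stayed called whichever array was left out, while Dpysl3 was lost without cKO 3 or control 2 (0.0516 and 0.0701), and Tubb2b without cKO 2, cKO 3, control 2 or control 3 (0.0632 to 0.0917). Syp was lost with the replicate block (0.0558) and without any 1 array other than cKO 2 (0.0542 to 0.144). Of 9 other genes of glia and Schwann cells 0 rose and 1 fell, and the median was -0.08. At an unadjusted limma p under 0.05, 0 were higher and 2 were lower, Entpd2 and Erbb3. The gene that fell was Entpd2, an ectonucleotidase of glia, which read 7.24, 6.83 and 6.90 in cKO 1, 2 and 3, against 7.81, 8.01 and 7.93 in control 1, 2 and 3. Its difference was -0.93 (adjusted p 0.00628), called whichever array was left out. Erbb3 differed by -0.71, with all 3 cKO arrays below the controls, and did not pass (adjusted p 0.0557).

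Of 14 other crest regulators 5 rose and 0 fell. The median difference was 0.135, and 7 of the 14 differences were negative, against 12179 of all 19938 genes. At an unadjusted limma p under 0.05, 6 were higher and 1 was lower, against 2641 and 3091 of all genes. Spry2, a feedback inhibitor of receptor tyrosine kinases, was higher by 0.90 (adjusted p 0.00385), the growth factor Nrg1 by 0.84 (0.00757), the transcription factor Zeb2 by 0.58 (0.0129) and Gfra2, the co-receptor for neurturin, by 0.58 (0.015). Gfra2 was below background on all control arrays, so it was at least 1.21-fold higher. Spry2 and Nrg1 stayed called whichever array was left out, Zeb2 was lost without control 2 or control 3 (0.0755 and 0.051), and Gfra2 without cKO 3, control 2 or control 3 (0.0511, 0.0824 and 0.0512). Over the 89 related genes outside the 34, some of which belong to a list of nerve injury genes, 14 rose (15.7%) and 3 fell (3.37%). Over all genes the shares were 6.81% and 7.36%. These lists were chosen with earlier results of these data known.

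Markers of the other cells of the gut wall moved in the same samples. All 9 smooth muscle markers rose, by a median of 0.87, and their summed log2 level ran from 95.6 to 97.9 in cKO and from 87.3 to 90.0 in control. The 6 fibroblast markers all rose, by a median of 0.70 (sums 65.5 to 67.0 in cKO and 61.0 to 62.2 in control), and 5 of 7 macrophage and neutrophil markers rose, by a median of 1.22 over the 7 (sums 47.5 to 53.8 in cKO and 41.7 to 41.9 in control). Of these 7 markers, 2 were above background on all 6 arrays. S100a8 and Cxcr2, among the 5 that rose, were above background on 1 cKO array and 0 control arrays. Of 3 markers of interstitial cells of Cajal 1 rose, Ano1, by 0.80, a call lost without cKO 3 and without control 2 (adjusted p 0.0515 each). Kit differed by 0.46 with separate groups and did not pass (limma adjusted p 0.0628), and Etv1 differed by -0.05 with overlapping groups. Several genes of the list, Ncam1 and Ednrb among them, are also transcribed by non-neuronal cells, and the part of these cells in the differences was not tested.

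Enteroendocrine cells of the epithelium share peptides and secretory proteins with neurons. Of 15 of their markers 0 rose and 2 fell, Ghrl by -0.92 and Gip by -0.91, with a median of -0.31 and summed levels of 107.0 to 108.9 in cKO and 113.6 to 114.2 in control. The difference was negative for 14 of the 15, against 12179 of all 19938 genes. At an unadjusted limma p under 0.05, 0 of the 15 were higher and 5 lower, against 2641 and 3091 of all genes. All 3 cKO arrays lay below the controls for 6 of the 15, against 19.3% of all genes. The part of enteroendocrine cells in the neuropeptide differences was not tested. The Ghrl call was kept whichever array was left out, and that of Gip was lost after median centring (adjusted p 0.0533) and without cKO 1, cKO 3, control 2 or control 3 (0.0663 to 0.0877). Of 9 epithelial genes 4 rose and 2 fell. Of 5 endothelial markers 0 passed (3 higher at unadjusted p under 0.05), with sums of 42.0 to 42.9 in cKO and 41.4 to 41.8 in control. All 5 adrenal markers, relevant to Th and Dbh, were below background on all 6 arrays, and 0 of 3 islet markers passed (0 at unadjusted p under 0.05 for both lists).

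**Figure D4:**
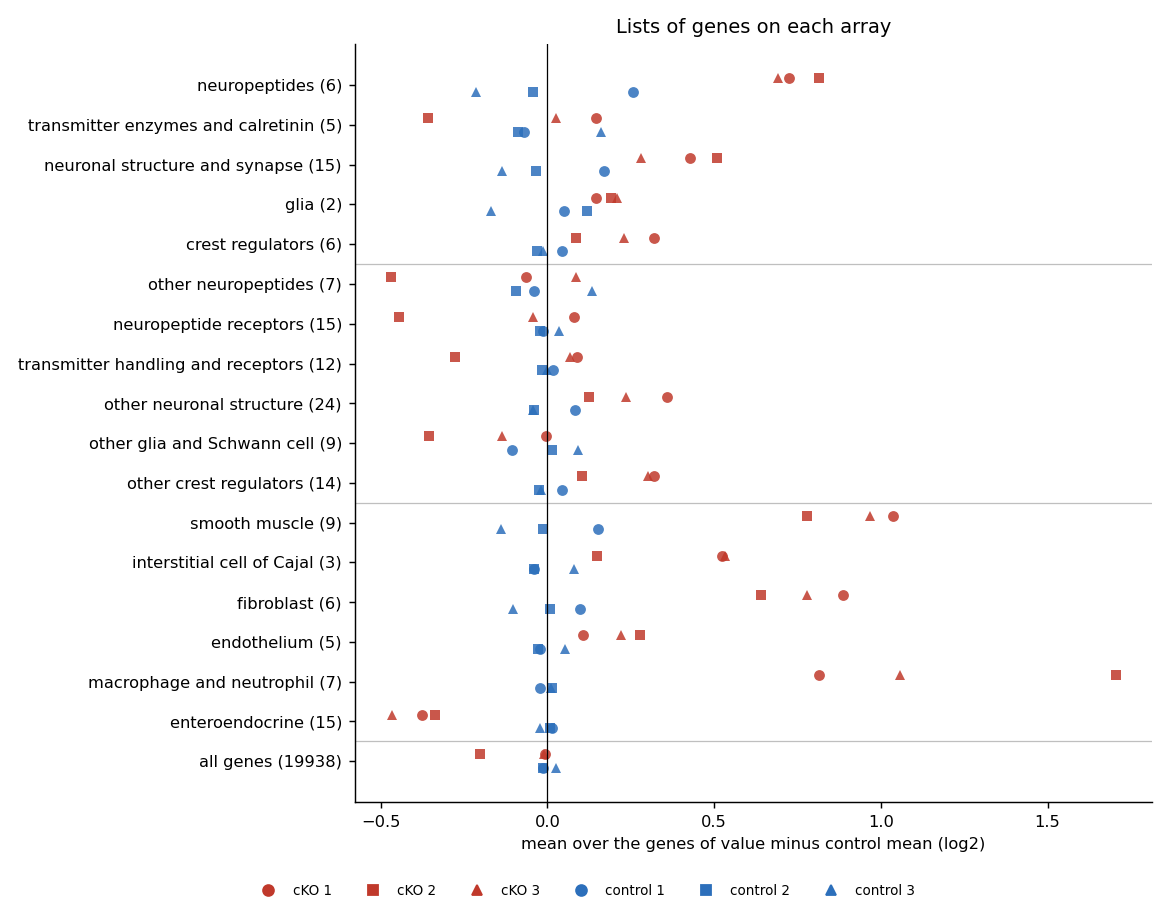
The mean over each list of value minus control mean (log2, x axis) on each array, with cKO in red above control in blue and the number of genes in parentheses: the classes of the 34 genes at the top, related lists in the middle and markers of other cells at the bottom, above all genes. Neuropeptides and structural genes lie at 0.28 to 0.81 in cKO, smooth muscle at 0.78 to 1.04, and the dimmer array cKO 2 lies to the left of the other cKO arrays for the transmitter enzymes, neuropeptide receptors and other glia.

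The 8 calls were not equally firm. Vip, Gal, Ncam1 and Gfra1 stayed called whichever array was left out, with adjusted p at most 0.0362, 0.0308, 0.0469 and 0.0488. Penk, Uchl1, Snap25 and Ednrb each lost the call without at least 1 of the arrays, as given for each. The count of genes called higher among the 34 was 5 without cKO 1 and without cKO 2, 4 without cKO 3 and without control 2, 7 without control 1 and 6 without control 3. Over all genes, 2825 were called with all arrays, 1517 without cKO 3, 1226 without control 2 and 1505 without control 3. The 3 arrays a group limit the precision, and an exact permutation test of 1 gene could give no two-sided p under 0.1.

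**Figure D5:**
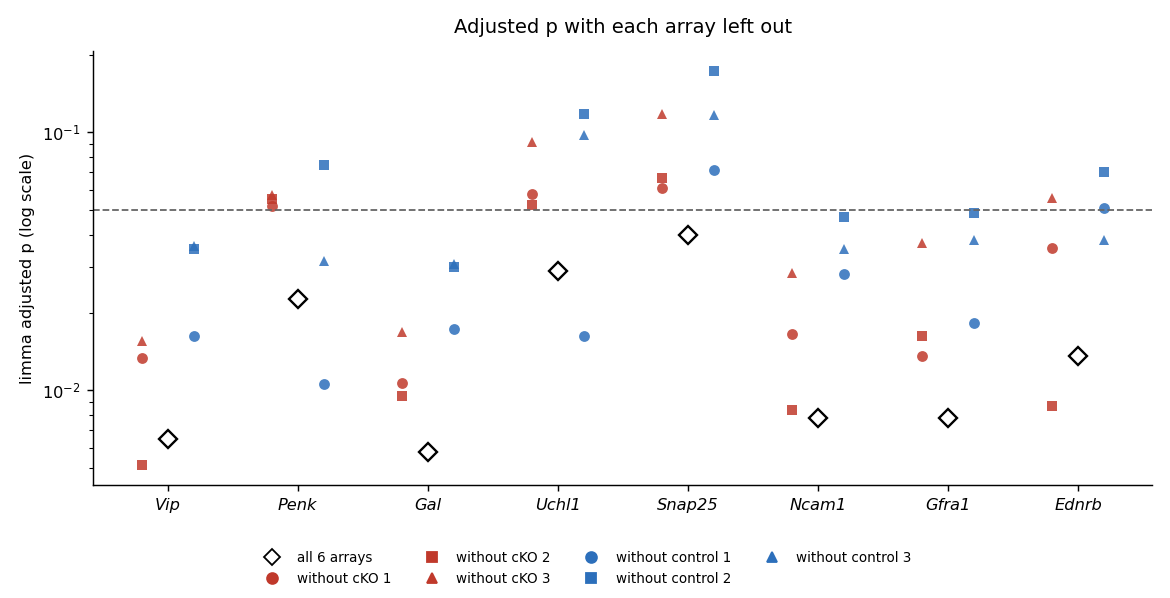
The limma adjusted p (y axis, log scale) of the 8 genes that rose (x axis), with all 6 arrays (open diamond) and with each array left out (red, a cKO array; blue, a control array), and a dashed line at 0.05. All points for Vip, Gal, Ncam1 and Gfra1 lie under the line, and all but the diamond lie above it for Snap25.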

How the data were processed

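The authors deposited 1 processed value per probe set and array, made with dChip from Affymetrix Mouse Gene 1.0 arrays per the series design text. The sources used here do not give its version, background correction, normalization or model. The deposited values (0 to about 14) were read as log2 from their range, since the labels name no scale, and folds rest on that reading. They were used as deposited. No read depth applies to arrays, and 3 per group limit the precision.

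Genes were named from GEO's annotation of the platform. Of 35512 probe sets, 21789 had 1 symbol, 1621 several and 12102 none listed. Symbols were updated by gene identifier through RefSeq (21698 found), and the brightest probe set over the 6 arrays was kept for each gene, which left 19938. Groups follow the sample titles. limma 3.58.1 in R 4.3.3 (lmFit and eBayes, two-sided, all 6 arrays, no covariate) was fitted over all genes, with Benjamini-Hochberg adjustment and a threshold of 0.05, and was tested on simulated data. Where a group was below background on all arrays, "at least" folds set its mean at the background level. The alternatives tried were other scalings, filters on dim genes, probe set rules, array weights, an intensity trend, a replicate block and leaving out each array.

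The 34 genes and all other lists were chosen with earlier results of these data known, and the background measure after the data had been seen. The genes named are the 34, Cdh1, up to 4 called genes of each related list in each direction by smallest p (up to 2 where none was called) and up to 3 of each marker list. S100b, Erbb3, S100a8, Cxcr2, Kit and Etv1, and Ncam1 and Ednrb beside other cell types, were named outside that rule. Some related genes are not reported here. Figures were drawn with matplotlib 3.10.9.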

Additional observations from a re-analysis of the deposited data

How the results depend on the processing

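In all 16 alternatives the neuropeptides had the highest class median and the structural genes the next. Vip and Gal stayed called in the 15 alternatives that tested them, and Ncam1 and Gfra1 in all 16. The number of the 34 called higher was 8 as reported, 9 after quantile normalization, 7 after median centring (without Snap25, adjusted p 0.0523), 8 after cyclic loess, 9 without the dimmest 25% of genes, 6 of the 17 left without the dimmer 50%, 8 under both other probe set rules, 11 with array weights, 9 with an intensity trend and 4 to 7 with 1 array left out. The number called lower was 0 in each. Prph joined after quantile normalization (0.0464), under both filters on dim genes (0.0398 and 0.0269), with array weights (0.0375), with the trend (0.0337) and without control 1 (0.0387). Array weights called 5834 genes in all, against 2825, and leaving out 1 array 1226 to 2713; weights were 0.27 for cKO 2 and 2.98 for cKO 3. Quantile normalization and median centring moved the median of all genes from -0.09 to -0.0028 and 0.0067.

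The labels number the samples 1 to 3 in each group and do not say whether same-numbered samples were paired. Deviations of same-numbered arrays from their group means correlated at -0.08, 0.13 and 0.14 over genes. The other pairs ran from -0.24 to 0.15. Deviations within a group depend on one another, so these correlations cannot settle whether the samples were paired. With the replicate number as a block, 6 of the 34 were called higher and 2212 genes in all; Uchl1 (adjusted p 0.05) and Snap25 (0.109) were not among the 6.

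The neuropeptide median was 0.62 without the dimmer 50% of genes (where Vip, Gal and Npy dropped out) and 0.66 to 1.02 with 1 array left out, and the crest median 0.23 after median centring and 0.0617 to 0.2283 with 1 array left out. Uncalled differences near 0 changed sign. After quantile normalization these were Npy 0.0256, Cartpt 0.0053 and Chat 0.11. After median centring they were Npy 0.0167, Cartpt 0.06, Chat 0.0767 and Gdnf 0.0467, and after cyclic loess Npy 0.0256 and Chat 0.11. With array weights they were Cartpt 0.11, Chat 0.0157, Th 0.011, Elavl3 -0.11 and Gdnf 0.0632. With 1 array left out, the differences ran from -0.0783 to 0.16 for Elavl3, from -0.0033 to 0.26 for Mapt, from -0.13 to 0.12 for Cartpt, from -0.21 to 0.15 for Chat, from -0.16 to 0.17 for Gdnf, from -0.04 to 0.12 for Dbh and from -0.19 to 0.0167 for Npy. Their cause was not tested.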

Other observations

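Among 13 genes known to change in neurons after their axons are cut, 5 rose and 0 fell in cKO, against 6.81% and 7.36% of all genes, and Vip and Gal are among the 5. The median difference was 0.21, 5 differences were negative, and 2 genes were lower at an unadjusted limma p under 0.05, Nts (-1.08, adjusted p 0.131) and Gadd45a (-0.60, adjusted p 0.0837). Jun (0.21) and Sox11 (0.01), transcription factors of the same response, had overlapping groups. Sprr1a, a small proline-rich protein of injured neurons and also of stressed epithelium, read 9.04, 10.34 and 9.47 in cKO 1, 2 and 3, against 5.44, 5.25 and 5.60 in control 1, 2 and 3. All its control values were below background, and it was at least 10.2-fold higher in cKO (limma adjusted p 0.000647). Atf3, a stress-induced transcription factor made by many cell types, read 7.91, 8.49 and 8.32 in cKO, against 6.12, 6.29 and 6.09 in control, a difference of 2.07 (adjusted p 0.000784), and only 1 control array was above background. The fifth, Basp1, a growth cone protein, differed by 1.05 (adjusted p 0.0171). Basp1, Nts, Gadd45a, Jun and Sox11 were named after their values were seen. The cells that make Sprr1a and Atf3 here were not tested, and 5 of 7 macrophage and neutrophil markers rose in the same samples. Of those 7 markers, 2 were above background on all 6 arrays.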
